A study of Mus musculus with 18 samples.

Results

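The genes described here are 34 genes of cholesterol and fatty acid synthesis and their regulators, chosen by name. All 34 were found by their symbol among the 21761 genes of the deposited expression table. They fall into 4 roles: 8 genes of the mevalonate arm, 11 genes that turn its product into squalene and then cholesterol, 6 regulators and carriers, and 9 genes of fatty acid synthesis and desaturation.

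Cells build cholesterol from acetyl-CoA through mevalonate, isoprenoid diphosphates, squalene and lanosterol, and build fatty acids from the same precursor through malonyl-CoA. Both arms are switched on by the membrane-bound transcription factors SREBP-1 and SREBP-2, encoded by Srebf1 and Srebf2, which the escort protein SCAP carries out of the endoplasmic reticulum when membrane sterol is low and which the INSIG proteins hold back when it is high. B cells that divide need new membrane, and plasma cells hold an extended endoplasmic reticulum for antibody secretion.

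RNA was sequenced from mouse B lineage cells sorted by flow cytometry, in 18 libraries of 6 groups with 3 libraries each. In nB and in GCB 4 libraries were from females and 2 from males, and in BMPC 2 and 4, so sex partly follows the comparisons with BMPC. The design asks what deletion of Dnmt3a and Dnmt3b, the enzymes that place new DNA methylation, does in naive B cells (nB), in B cells of the germinal center (GCB) and in plasma cells of the bone marrow (BMPC). Dnmt3-deficient mice were Dnmt3afl/fl Dnmt3bfl/fl with Cre, and Dnmt3-sufficient littermates were Dnmt3afl/fl Dnmt3bfl/fl without Cre, so both groups carried the floxed alleles and only the deficient mice carried Cre. An effect of Cre itself and one of the deletion cannot be told apart in this design. The strain background was B6;129S4-Dnmt3atm3.1Enl Dnmt3btm5.1Enl/Mmnc. Mice were 8 to 12 weeks old when they entered the experiments. The nB were B220+ GL7- Fas- lymph node cells of unimmunized mice. The GCB were B220+ GL7+ Fas+ lymph node cells that bound phycoerythrin (PE), taken 30 days after PE in complete Freund's adjuvant, and each GCB library pooled 2 mice. The BMPC were CD138+ bone marrow cells, also taken at 30 days.

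The nB libraries held 6692516 to 8987922 reads and the GCB libraries 7644544 to 8903872, while the BMPC libraries held only 1355231 to 3803197. Within BMPC the sufficient libraries held 2196198, 3803197 and 3629318 reads and the deficient ones 1632925, 1355231 and 2265945. Depth thus partly follows genotype there. Of the 34 genes, each BMPC library had 5 to 12 at 0, each nB library 1 to 5 and each GCB library 0 to 1. Of 10 housekeeping genes, up to 1 was at 0 in a BMPC library, so a 0 there is weak evidence. Summed over all exons, Dnmt3a and Dnmt3b overlapped between genotypes in nB (0.521 to 8.15 FPKM over both genes) and BMPC (0 to 9.29) and were near 0 in GCB (0 to 1.10). Whole-gene totals hold exons outside the deleted part, so they do not check the deletion. The markers of each cell type were highest in the libraries of that label (summed FPKM 1869 to 2016 for nB, 1185 to 1342 for GCB and 2849 to 5049 for BMPC). The BMPC libraries also held markers of erythroid cells (5 genes, sum 1454 to 5580 FPKM, against 0 to 131 in nB and 0 to 2.40 in GCB). Early B cell markers (5 genes) came to 308 to 627 in BMPC, against 1.58 to 22.5 in nB and 0 to 1.65 in GCB. Neutrophil markers (7 genes) came to 9.37 to 662 in BMPC and to 0 in nB and GCB. T cell markers (6 genes) came to 53.5 to 198 in BMPC, which overlapped 18.1 to 69.5 in nB, and to 0.610 to 5.72 in GCB. Those of macrophages reached no more than 13.2. The sort used stains for Ly6-G, CD90.2, CD11b and CD11c to exclude other cells, and the marker RNA given above was found after it. The part of such cells in the BMPC results below was not tested, and fewer cells of a type cannot be told apart from less RNA per cell.

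The control regions of some of these genes are shown first, because many of the genes differed between the same cell types. Promoters (250 bases before to 50 after the start of transcription, RefSeq, build GRCm38.p6) were found for 27 of the 34 genes, 35 promoters in all. On both strands they were searched for the sterol response element TCACNCCAC, which SREBP binds, the E-box CACGTG, which SREBP-1 also binds, and the boxes CCAAT and GGGCGG of its partner factors NF-Y and Sp1. CCAAT was in 65.7% of the member promoters (22 genes), against 37.4% of all 32851 promoters and 38.1% of the 11577 promoters of genes tested here. GGGCGG was in 74.3% (22 genes), against 35.7% and 61.5%, and CACGTG in 17.1% (Dhcr7, Hsd17b7, Insig1, Sc5d and Scap), against 7.15% and 10.2%. No promoter was found for Fdft1, Fdps, Sqle, Scd1, Scd2, Fads1 and Stard4, so they were not searched. Of the 27 genes searched, only Hmgcs1 held TCACNCCAC in this window, 2.86% of member promoters against 1.24% and 1.10%. These are matches of letters, not shown sites. The promoter of Hmgcs1 (chr13:119690101-119690400, plus strand) is printed for its sterol response element. Those of Idi1 (chr13:8885356-8885655, plus), Insig1 (chr5:28071162-28071461, plus) and Ebp (chrX:8193463-8193762, minus) are printed because Idi1 had the largest rise in GCB and Insig1 and Ebp had all BMPC libraries above all others, a choice made after their values were seen. Capitals mark the matches of all 4 motifs, and no match of one motif overlapped another in these promoters.
Hmgcs1: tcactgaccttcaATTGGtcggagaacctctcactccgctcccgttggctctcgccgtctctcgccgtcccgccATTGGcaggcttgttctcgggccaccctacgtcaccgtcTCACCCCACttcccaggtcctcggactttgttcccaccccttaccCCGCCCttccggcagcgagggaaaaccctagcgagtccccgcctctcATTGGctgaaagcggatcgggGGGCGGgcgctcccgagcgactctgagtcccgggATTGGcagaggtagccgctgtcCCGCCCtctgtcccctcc
Idi1: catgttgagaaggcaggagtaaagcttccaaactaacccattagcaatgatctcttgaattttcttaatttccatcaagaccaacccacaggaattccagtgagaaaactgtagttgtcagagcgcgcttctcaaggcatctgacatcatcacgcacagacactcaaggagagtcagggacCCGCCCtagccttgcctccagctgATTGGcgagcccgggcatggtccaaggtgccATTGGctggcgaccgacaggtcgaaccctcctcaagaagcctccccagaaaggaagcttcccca
Insig1: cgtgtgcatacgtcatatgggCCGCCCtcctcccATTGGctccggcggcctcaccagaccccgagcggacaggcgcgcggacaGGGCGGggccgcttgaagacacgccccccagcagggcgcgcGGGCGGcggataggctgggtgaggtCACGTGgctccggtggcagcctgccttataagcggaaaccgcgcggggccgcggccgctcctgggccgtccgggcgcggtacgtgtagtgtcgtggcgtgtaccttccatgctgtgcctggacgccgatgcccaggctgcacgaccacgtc
Ebp: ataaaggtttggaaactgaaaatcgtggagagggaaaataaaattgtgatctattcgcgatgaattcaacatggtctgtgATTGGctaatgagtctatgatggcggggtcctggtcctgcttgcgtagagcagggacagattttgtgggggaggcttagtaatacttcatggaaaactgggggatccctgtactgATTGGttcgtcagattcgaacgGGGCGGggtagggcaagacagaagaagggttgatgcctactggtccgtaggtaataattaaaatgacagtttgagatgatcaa
Hmgcs1 held 8 matches (1 sterol response element, 4 CCAAT and 3 GGGCGG), Insig1 held 5 (1 E-box, 1 CCAAT and 3 GGGCGG), and Idi1 and Ebp held 3 each (2 CCAAT and 1 GGGCGG).

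The 3 cell types had different leading genes. Levels are in FPKM, reads scaled to exon length and library total, so they can be compared between genes. In nB the highest member was Scd1, the main stearoyl-CoA desaturase, with a median of 245 FPKM, rank 285 of 11522 genes, followed by Ebp at 53.5 and the ATP citrate lyase Acly at 49.5. In GCB the order was Fdps, which makes farnesyl diphosphate, at 178 FPKM (rank 554), then Acat2 at 99.2 and the isopentenyl diphosphate isomerase Idi1 at 92.5. In BMPC it was Fdps at 90.1, the sterol isomerase Ebp at 82.7 and the sterol sensor Insig1 at 56.7. By median, 22 of 33 members reached 10 FPKM in nB, as did 23 in GCB and 12 in BMPC. The genes that make new sterol, summed by library, were highest in GCB: the mevalonate arm came to 415 to 643 FPKM there, against 144 to 195 in nB and 84.4 to 309 in BMPC, with no overlap between GCB and the others. The sterol arm gave 360 to 450 in GCB, 156 to 243 in nB and 166 to 207 in BMPC. The sum of the fatty acid genes was 290 to 358 for nB, 115 to 189 for GCB and 19.7 to 92.0 for BMPC libraries, and most of the nB sum was Scd1. Without Scd1 the other 8 gave overlapping sums, 53.7 to 94.7 for nB, 64.9 to 121 for GCB and 19.7 to 91.9 for BMPC. The regulators summed to overlapping ranges in all 3 cell types, 65.7 to 103, 68.9 to 112 and 41.7 to 115.

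**Figure D1:**
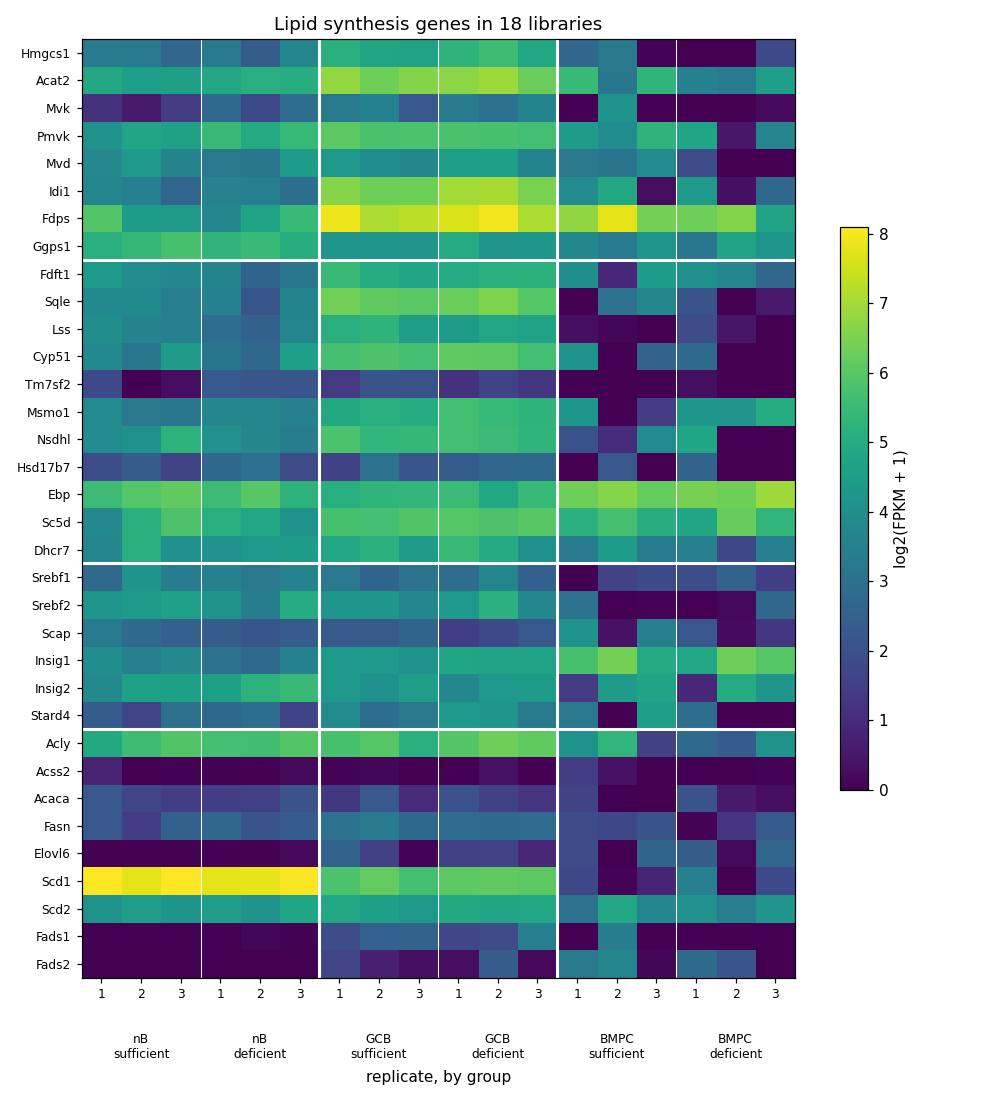
Heat map of log2(FPKM + 1) for the 34 genes (rows, grouped by role and separated by white lines) in the 18 libraries (columns, replicate numbers by group). Cholesterol genes are brightest in the 6 GCB columns, Scd1 in the 6 nB columns, and the 6 BMPC columns hold the most genes at 0, as they do over all genes tested.

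Differences were tested with limma on log2(FPKM + 1), and a gene was called when its Benjamini-Hochberg adjusted p over 11522 genes was 0.05 or lower and the log2 difference was 1 or larger in size. All but 1 of the 34 genes passed the filter on low values. The exception was Acss2, an acetyl-CoA synthetase, which stayed between 0 and 1.81 FPKM in every library.

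Naive and germinal center B cells were compared first, to ask how the genes change on activation. Of the 19 cholesterol enzyme genes, 11 had all 6 GCB libraries above all 6 nB libraries, while Ggps1 lay below and Mvd and Mvk overlapped. Over all roles, all 6 GCB libraries lay above all 6 nB libraries for 15 of 33 members, a pattern that 13.2% of all genes tested showed. They were Hmgcs1, Acat2, Pmvk, Idi1 and Fdps of the mevalonate arm, Fdft1, Sqle, Lss, Cyp51, Msmo1 and Nsdhl of the sterol arm, Insig1, and Fasn, Fads1 and Fads2. Only Scd1 and Ggps1, which makes geranylgeranyl diphosphate, lay below nB in the same sense (14.4% of all genes). By the test over all 18 libraries, 5 members passed as higher and 1 as lower in Dnmt3-sufficient mice (7.22% and 6.93% of all genes), and 7 and 0 in Dnmt3-deficient mice (6.31% and 6.61%). That test shares 1 spread per gene with the noisier BMPC libraries. Fitted to the 2 groups compared alone, 12 members passed as higher and 2 as lower in sufficient mice (10.1% and 12.9% of all genes), and 14 and 1 in deficient mice (9.63% and 12.6%), with 10 higher in both genotypes. The median difference over the 33 members was 0.98 and 0.81 on the log2 scale in sufficient and deficient mice, against -0.11 and -0.13 over all genes.

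Idi1 isomerizes the 5-carbon building block of all isoprenoids and lies on mm9 at chr13:8884852-8891641. It stood at 12.0, 10.3 and 5.20 FPKM in the 3 Dnmt3-sufficient nB libraries and at 97.3, 77.7 and 78.7 in GCB. In Dnmt3-deficient mice it stood at 11.2, 10.4 and 6.57 in nB and at 126, 129 and 87.7 in GCB. The groups were far apart, with means 9.21-fold and 12.2-fold higher in GCB. The log2 difference was 3.13 ± 0.98 (SE) in sufficient mice (limma adjusted p = 0.039) and 3.48 ± 0.98 in deficient mice (limma adjusted p = 0.023).

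Squalene epoxidase, Sqle (mm9 chr15:59146632-59162747), catalyzes the first oxygen-dependent step of sterol synthesis. Its nB libraries gave 13.3, 13.5 and 10.1 FPKM in sufficient and 10.8, 3.53 and 11.7 in deficient mice. Its GCB libraries gave 81.7, 68.7 and 64.1 in sufficient and 74.6, 91.7 and 60.9 in deficient mice. The lowest GCB library was thus several times the highest nB library, and the log2 difference was 2.45 ± 0.76 (limma adjusted p = 0.039) and 3.10 ± 0.76 (limma adjusted p = 0.011).

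Fdps (mm9 chr3:88897514-88905881) supplies farnesyl diphosphate for both sterols and protein prenylation. It was at 59.5, 21.3 and 20.4 FPKM in sufficient nB and at 236, 136 and 155 in sufficient GCB. Among deficient mice, Fdps was at 12.4, 25.8 and 42.7 in nB and at 200.2, 248 and 137 in GCB. Fdps varied among nB libraries more than Idi1 or Sqle did, yet no nB library reached a GCB library. The log2 difference was 2.49 ± 0.56 (limma adjusted p = 0.0053) and 2.93 ± 0.56 (limma adjusted p = 0.0016).

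Acat2, which joins acetyl-CoA units at the head of the mevalonate arm, rose from 24.8 ± 3.60 FPKM (SD, n = 3) in sufficient nB to 94.0 ± 15.2 in GCB. Among deficient mice it rose from 30.9 ± 3.15 to 99.3 ± 21.6. The log2 differences were 1.88 ± 0.49 (limma adjusted p = 0.015) and 1.63 ± 0.49 (limma adjusted p = 0.034). The delta-5 desaturase Fads1, which makes polyunsaturated fatty acids, was the only fatty acid gene called higher in both genotypes. It had 0 reads in the 3 sufficient nB libraries and 98, 148 and 165 reads in the 3 GCB libraries, at least 42.5-fold higher with each nB library set to 3 reads. The deficient libraries had 0, 3 and 1 reads in nB and 75, 85 and 349 in GCB, a ratio of 114 (95% exact interval 44.3 to 421, counting error only).

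Insig1 and the lanosterol synthase Lss also passed as higher in deficient mice. Insig1 rose there from 7.99 ± 2.62 to 25.2 ± 1.43 FPKM (log2 difference 1.58 ± 0.43), and went from 12.8 ± 2.08 to 18.5 ± 1.63 in sufficient mice (0.50 ± 0.43). Lss rose from 7.75 ± 3.78 to 24.5 ± 3.52 FPKM in deficient mice (1.62 ± 0.50), and went from 12.3 ± 2.53 to 30.6 ± 7.87 in sufficient mice (1.23 ± 0.50). Neither change differed between the genotypes by the interaction test. Scd1 was the only gene called lower in the test over all libraries. Its 6 nB libraries lay between 216 and 274 FPKM and its 6 GCB libraries between 49.9 and 70.2. The log2 difference was -2.10 ± 0.61 in sufficient mice (limma adjusted p = 0.027) and -1.81 ± 0.61 in deficient mice (limma adjusted p = 0.059), and it passed in both in the fit to the groups compared. Its neighbor Scd2 showed 16.4 to 26.5 FPKM in nB and 19.1 to 29.5 in GCB. The paired genes are close copies, so reads may be split between them.

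The other sterol ring enzymes and the regulators moved less. Tm7sf2, Hsd17b7, Ebp, Sc5d and Dhcr7, which modify the closed ring, gave log2 differences between -0.79 and 1.25 in the 2 genotypes. None passed in the test over all libraries, and Sc5d passed in deficient mice in the fit to the groups compared. Srebf2, the factor most tied to cholesterol genes, was at 18.4, 20.2 and 23.8 FPKM in sufficient nB and 18.2, 18.03 and 12.9 in GCB. In deficient mice it was at 17.2, 9.63 and 31.2 in nB and 19.1, 35.1 and 12.4 in GCB. The groups just missed each other in sufficient mice and overlapped in deficient mice. Srebf1, tied more to fatty acid genes, was at 5.98, 17.3 and 9.52 FPKM in sufficient nB and 8.49, 5.14 and 7.53 in GCB. In deficient mice it was at 10.8, 8.29 and 11.2 in nB and 6.33, 12.1 and 4.75 in GCB. Scap stayed between 1.85 and 9.27 FPKM in all 12 libraries, and 18.9% of its exon bases are shared with a gene on the other strand. Insig2, the second INSIG gene, was at 13.2, 24.0 and 23.3 FPKM in sufficient nB and 18.9, 15.8 and 22.3 in GCB. In deficient mice it was at 23.4, 36.9 and 43.5 in nB and 12.8, 19.6 and 20.2 in GCB. None of these 4 regulators passed in either fit. The 8 cell cycle genes measured beside them summed to 1740 to 1958 FPKM in GCB and 29.1 to 55.1 in nB, and the part of cell division in the differences of the synthesis genes was not tested.

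**Figure D2:**
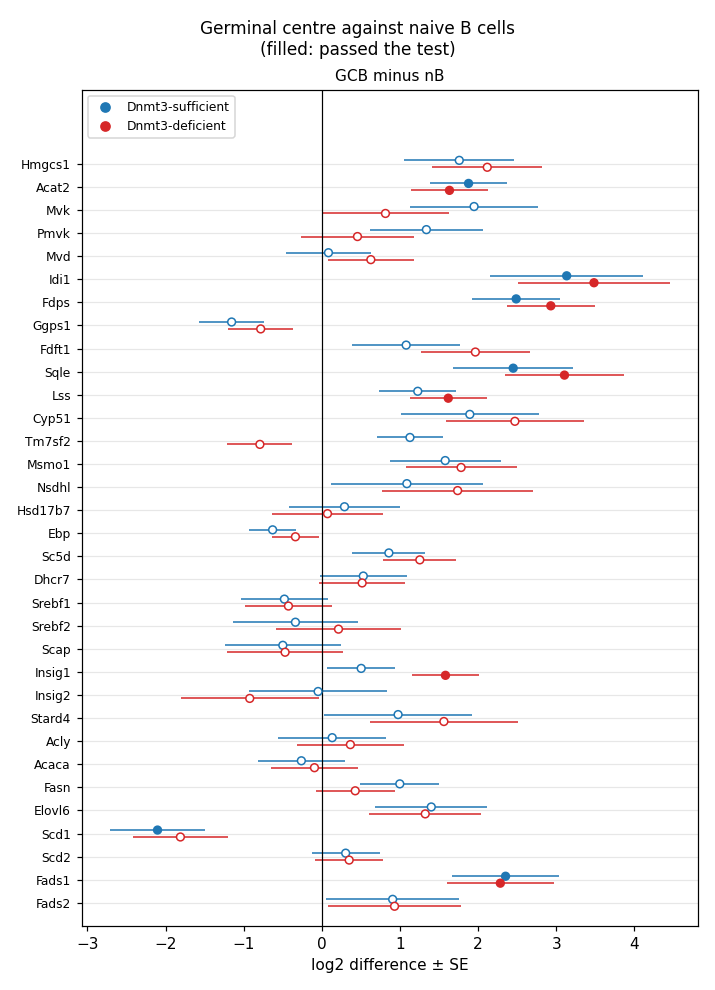
Log2 difference of GCB minus nB with its standard error (x axis) for the 33 genes tested (y axis, ordered by role), in Dnmt3-sufficient (blue) and Dnmt3-deficient (red) mice. Filled points passed the test over all libraries. Most cholesterol enzymes lie to the right of 0 in both genotypes, Scd1 and Ggps1 to the left, and Srebf1, Srebf2 and Scap near 0.

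Fdps kept its call in all 18 fits that left out 1 library, in both genotypes. The other calls of this comparison were each lost in 1 to 9 of those fits. Without 1 of the sufficient nB or GCB libraries, 1 to 3 members passed in sufficient mice in place of 6. Without 1 of the deficient nB or GCB libraries, 1 to 4 passed in deficient mice in place of 7, and 12 passed without the second sufficient BMPC library, the one with the highest Fdps and Insig1 in its group. The lowest count, 1, came without the second nB library in either genotype.

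Plasma cells were compared with both B cell types to ask how the genes change on differentiation. In BMPC, Scd1, Lss and Srebf2 were lower than in both B cell types in both genotypes, Insig1 was higher than in nB and Ebp higher than in GCB. Against nB, 3 members passed as higher and 6 as lower in sufficient mice (9.74% and 27.6% of all genes). In deficient mice 1 was higher and 13 lower (6.85% and 30.6%). Against GCB, 2 were higher and 14 lower in sufficient mice (6.67% and 20.9%), and 1 and 19 in deficient mice (6.14% and 26.1%). The share of members lower than nB was below that of all genes in sufficient mice and above it in deficient mice, and the share lower than GCB was above it in both. This order did not hold throughout in the fit to the groups compared. Fitted to the groups compared, 2 and 4 passed against nB in sufficient mice (7.43% and 16.9% of all genes), and 1 and 6 in deficient mice (4.96% and 19.6%). Against GCB that fit gave 1 and 5 in sufficient mice (5.32% and 15.5%), and 1 and 14 in deficient mice (4.46% and 18.1%). There the lower members were 12.1% and 18.2% of 33 against nB and 15.2% and 42.4% against GCB, so the share stood above that of all genes only against GCB in deficient mice. Passing in both genotypes in that fit were Insig1 (higher) and Scd1 (lower) against nB, and Ebp (higher) and Lss, Scd1, Sqle and Tm7sf2 (lower) against GCB. Of these, Tm7sf2 was near the floor, at 1.26 to 3.19 FPKM in GCB. It had 0, 0 and 0 reads in sufficient and 1, 0 and 0 in deficient BMPC. With each BMPC library set to 3 reads, it was at least 7.02-fold and 2.42-fold lower than in GCB. The median log2 difference of the members from GCB was -1.32 in sufficient and -1.72 in deficient mice, against -0.57 and -0.73 over all genes. Rescaling the libraries by the median of ratios moved those all-gene medians to -0.46 and -0.54.

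Over both genotypes together, all 6 BMPC libraries lay below all 6 GCB libraries for 13 members (18.1% of all genes): Acat2, Hmgcs1, Pmvk, Idi1, Fdft1, Sqle, Lss, Cyp51, Nsdhl, Tm7sf2, Fasn, Scd1 and Srebf2. They lay below nB for Ggps1, Lss, Scd1, Srebf1 and Srebf2 (18.8% of all genes). They lay above both B cell types for Ebp and Insig1 alone (6.01% of all genes above nB and 5.13% above GCB).

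Scd1 (mm9 chr19:44468941-44482199) had the largest log2 difference from nB in both genotypes. Its BMPC libraries held 2.35, 0.0544 and 0.797 FPKM in sufficient and 10.1, 0 and 2.46 in deficient mice, from 216 or more in every nB library. The log2 difference from nB was -7.09 ± 0.61 (limma adjusted p = 2.4e-07) and -6.13 ± 0.61 (limma adjusted p = 1.4e-06). From GCB it was -4.99 ± 0.61 (limma adjusted p = 1.5e-05) and -4.32 ± 0.61 (limma adjusted p = 5.6e-05). Scd2 kept 7.10 to 28.8 FPKM in BMPC and did not pass in any comparison. Acly, which feeds acetyl-CoA to both arms, was called lower than both cell types in both genotypes, at 19.3 ± 18.6 and 8.82 ± 6.67 FPKM (SD, n = 3) against nB means of 45.4 and 53.2. In sufficient mice its groups overlapped, it did not pass in the fit to the groups compared, and leaving out 1 library ended its call in 15 of 18 fits against nB and 13 of 18 against GCB.

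Lss, which closes the first sterol ring system, was nearly silent in BMPC. It had 2, 1 and 0 reads in the sufficient libraries, against 384, 330 and 353 in nB and 1095, 1076 and 701 in GCB. Pooled, the share of reads was 147 times higher in nB (95% exact interval 50.1 to 713) and 368 times higher in GCB (126 to 1788), counting error only. In deficient mice Lss stood at 2.60, 0.391 and 0 FPKM, against 4.76 to 12.0 in nB and 21.1 to 28.1 in GCB. The log2 difference from GCB was -4.81 ± 0.50 in sufficient (limma adjusted p = 2.3e-06) and -3.89 ± 0.50 in deficient mice (limma adjusted p = 2.0e-05). From nB it was -3.59 ± 0.50 (limma adjusted p = 3.3e-05) and -2.27 ± 0.50 (limma adjusted p = 0.0019).

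Sqle was also far below GCB. It stood at 0, 7.27 and 12.2 FPKM in sufficient and 3.34, 0 and 0.482 in deficient BMPC, log2 differences of -3.91 ± 0.76 (limma adjusted p = 0.0011) and -5.35 ± 0.76 (limma adjusted p = 6.1e-05) from GCB. Cyp51, the sterol demethylase that acts on lanosterol, stood at 51.3, 56.6 and 49.9 FPKM in sufficient GCB and at 16.4, 0 and 5.0005 in BMPC. In deficient mice it stood at 69.4, 65.8 and 49.2 in GCB and at 5.91, 0 and 0 in BMPC. The log2 differences were -3.51 ± 0.88 (limma adjusted p = 0.0067) and -5.02 ± 0.88 (limma adjusted p = 3.8e-04). Idi1 gave 14.1, 29.5 and 0.192 FPKM in sufficient and 19.7, 0.257 and 5.70 in deficient BMPC. Its BMPC libraries ran from well above to well below the nB range, while all were below GCB, with log2 differences of -3.38 ± 0.98 (limma adjusted p = 0.016) and -4.35 ± 0.98 (limma adjusted p = 0.0027). In the fit to the groups compared, Cyp51 and Idi1 did not pass in sufficient mice.

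Not all of the chain was low. Fdps kept 107, 216 and 83.6 FPKM in sufficient BMPC, where it passed as higher than nB (2.03 ± 0.56, limma adjusted p = 0.0090). In deficient BMPC it kept 78.1, 96.5 and 24.2 (1.21 ± 0.56 from nB, limma adjusted p = 0.096). Sc5d, a late sterol desaturase, kept 26.6 to 73.9 FPKM in BMPC and passed in no comparison with BMPC. Ebp (mm9 chrX:7762455-7770638), the isomerase that shifts the sterol ring double bond, was highest in BMPC. It gave 79.2, 97.3 and 71.7 FPKM in sufficient BMPC, against 33.2, 38.2 and 39.9 in GCB and 45.6, 61.0 and 69.5 in nB. Ebp in deficient mice gave 86.2, 78.4 and 121 in BMPC, against 44.99, 27.4 and 42.4 in GCB and 46.0, 62.7 and 37.1 in nB. The log2 difference from GCB was 1.13 ± 0.30 (limma adjusted p = 0.010) and 1.30 ± 0.30 (limma adjusted p = 0.0035). Against nB, Ebp differed by less than the minimum of 1 (0.50 ± 0.30 and 0.96 ± 0.30), although no library overlapped. The delta-6 desaturase Fads2 had no read in the 6 nB libraries and 71, 168 and 1 reads in sufficient BMPC, at least 65.4-fold higher with each nB library set to 3 reads. It was called there, although 1 of the 3 libraries held a single read and the call was lost in 5 of 18 fits that left out a library. Deficient BMPC held 36, 17 and 0 reads, at least 28.9-fold higher, and was not called (limma adjusted p = 0.14).

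Among the regulators, Insig1 was higher and both SREBP genes were lower in BMPC than in nB in both genotypes. Insig1 (mm9 chr5:28397952-28405201), itself a known SREBP target, stood at 14.7, 10.6 and 13.2 FPKM in the sufficient nB libraries, at 18.9, 19.8 and 16.6 in the GCB libraries and at 52.4, 83.6 and 30.1 in the BMPC libraries. Its deficient nB libraries gave 7.18, 5.87 and 10.9, its GCB libraries 26.9, 24.2 and 24.6, and its BMPC libraries 28.0, 79.1 and 61.0. Each BMPC library was above every B cell library. The log2 difference from nB was 1.93 ± 0.43 (limma adjusted p = 0.0022) and 2.58 ± 0.43 (limma adjusted p = 2.2e-04). From GCB it was 1.42 ± 0.43 (limma adjusted p = 0.020) and 1.00 ± 0.43 (limma adjusted p = 0.084).

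Srebf2 went the other way, to 7.04, 0 and 0.0495 FPKM in sufficient and 0, 0.133 and 5.55 in deficient BMPC. The log2 difference from nB was -3.41 ± 0.80 (limma adjusted p = 0.0030) and -3.24 ± 0.80 (limma adjusted p = 0.0045), and from GCB -3.08 ± 0.80 (limma adjusted p = 0.0083) and -3.45 ± 0.80 (limma adjusted p = 0.0033). In the fit to the groups compared Srebf2 kept its call against nB in sufficient and against GCB in deficient mice and lost the other 2. Srebf1 gave 0, 2.14 and 2.56 FPKM in sufficient and 2.85, 4.81 and 1.75 in deficient BMPC. Its log2 difference from nB was -2.30 ± 0.56 (limma adjusted p = 0.0037) and -1.48 ± 0.56 (limma adjusted p = 0.043), and neither passed in the fit to the groups compared. Insig2 gave 1.69, 20.4 and 25.7 FPKM in sufficient and 0.909, 31.0 and 17.5 in deficient BMPC, and Scap 16.9, 0.307 and 10.03 and 3.57, 0.172 and 1.44. Both scattered too widely within BMPC to place, and neither passed. The median SD of the members on the log2 scale was 1.29 and 1.03 within the BMPC groups, against 0.27 to 0.37 within the others, and over all genes tested it was 0.78 and 0.82 against 0.27 to 0.41.

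The remaining members are given by their range over the 6 libraries of a cell type. In the mevalonate arm, Hmgcs1, which makes HMG-CoA, spanned 4.25 to 12.2 FPKM among nB, 24.2 to 46.8 among GCB and 0 to 8.64 among BMPC libraries, and was lower in BMPC than in GCB in both genotypes. Pmvk, the phosphomevalonate kinase, spanned 16.8 to 42.7 among nB, 49.1 to 65.2 among GCB and 0.433 to 37.5 among BMPC libraries. Ggps1 spanned 31.9 to 52.4 among nB, 17.5 to 30.5 among GCB and 8.16 to 25.6 among BMPC libraries, and was lower in BMPC than in nB in both genotypes.

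Of the sterol genes, the squalene synthase Fdft1 spanned 5.17 to 19.6 FPKM among nB, 26.5 to 43.7 among GCB and 0.853 to 20.6 among BMPC libraries. Nsdhl, a sterol dehydrogenase, spanned 9.61 to 36.6 among nB, 38.3 to 54.5 among GCB and 0 to 26.5 among BMPC libraries, and was lower in BMPC than in GCB in both genotypes. Dhcr7, which makes cholesterol from its last precursor, ran from 11.9 to 32.5, 15.6 to 42.9 and 2.36 to 21.1. The Dhcr7 ranges of all 3 cell types overlap, and it was called lower in BMPC than in GCB in deficient mice only (log2 difference -1.89 ± 0.55, limma adjusted p = 0.015), where those groups did not overlap. Hsd17b7 reached at most 7.08 FPKM and was called in no comparison. Stard4, a sterol carrier, spanned 2.097 to 6.87 among nB, 6.21 to 19.4 among GCB and 0 to 21.8 among BMPC libraries, and was called lower than GCB in deficient BMPC only. The fatty acid synthase Fasn spanned 1.67 to 5.41 among nB, 5.65 to 8.91 among GCB and 0.0616 to 3.86 among BMPC libraries. The acetyl-CoA carboxylase Acaca stayed at 3.84 or lower in all libraries, and the elongase Elovl6 spanned 0 to 0.129 among nB, 0.0583 to 4.97 among GCB and 0 to 5.22 among BMPC libraries. Acaca was called in no comparison, and Elovl6 only in the fit to the groups compared, as higher in GCB than in nB in deficient mice.

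**Figure D3:**
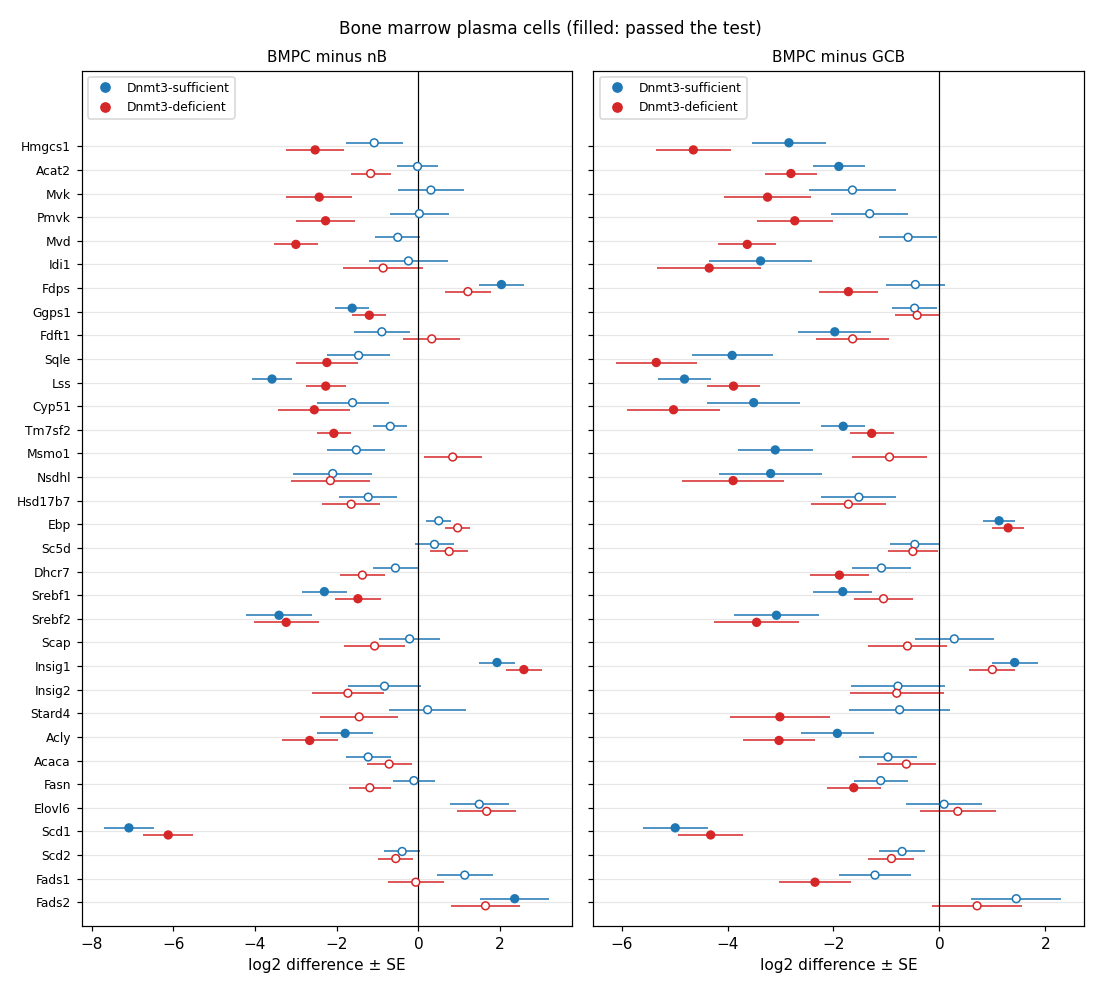
Log2 difference of BMPC minus nB (left) and BMPC minus GCB (right) with its standard error for the 33 genes tested, in Dnmt3-sufficient (blue) and Dnmt3-deficient (red) mice. Filled points passed the test over all libraries. Scd1 is the leftmost gene against nB in both genotypes, and Insig1 against nB and Ebp against GCB are filled to the right of 0 in both. Both panels share the BMPC libraries.

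**Figure D4:**
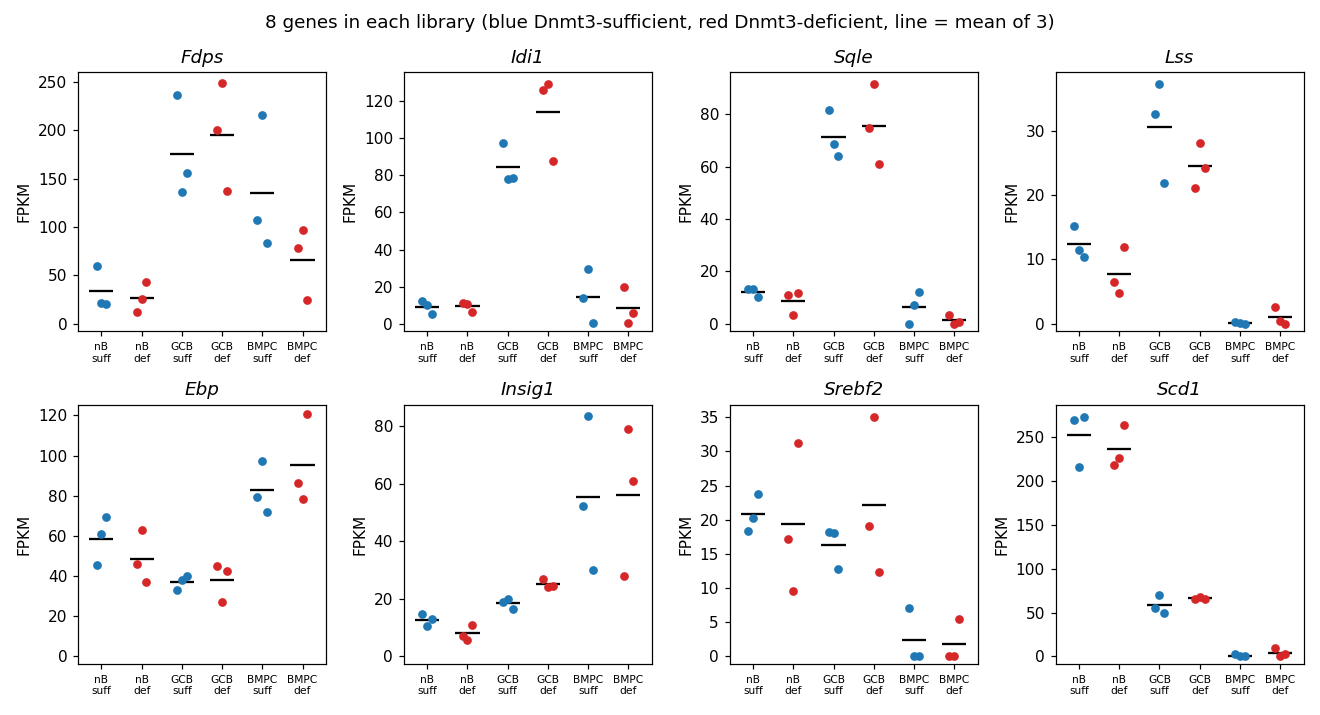
FPKM of 8 genes in each of the 18 libraries (points) with the mean of the 3 libraries of a group (line), for Dnmt3-sufficient (blue) and Dnmt3-deficient (red) mice, each panel on its own linear axis that includes 0. Fdps, Idi1, Sqle and Lss peak in GCB, Ebp and Insig1 in BMPC, and Scd1 in nB, while Srebf2 is similar in nB and GCB and low in BMPC.

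The genotypes were compared within each cell type, the main question of the design. In nB, 0 of 33 members passed, against 0.0521% of all genes called higher and 0% called lower, and 1 member and 312 genes had an unadjusted p under 0.05. In GCB 0 members and 0% of all genes passed in either direction, with 0 members and 124 genes at an unadjusted p under 0.05. Voom on the recovered reads also called 0 members in both cell types. In GCB the differences of all 33 members lay between -0.55 and 0.65 on the log2 scale. The 3 lowest p-values in nB belonged to Tm7sf2, a sterol reductase, Mvk, the mevalonate kinase, and Insig1. Tm7sf2 was at 2.47, 0 and 0.209 FPKM in sufficient and 3.66, 3.37 and 3.48 in deficient nB (log2 difference 1.48 ± 0.42, limma adjusted p = 0.66), and 15.3% of its exon bases are shared with another gene of the same strand. It passed when the first sufficient nB library was left out. Mvk was at 1.25, 0.496 and 1.73 FPKM in sufficient and 5.89, 2.54 and 6.501 in deficient nB (1.44 ± 0.82, limma adjusted p = 1.0). The groups of Tm7sf2 and of Mvk did not overlap. Insig1 differed by -0.65 ± 0.43 in nB, where the groups overlapped, and by 0.43 ± 0.43 in GCB, where they did not. In GCB the other two of lowest p were Tm7sf2 (-0.44 ± 0.42) and Scap (-0.55 ± 0.74), all with a limma adjusted p of 1.0.

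Within BMPC, Dnmt3-deficient cells had 1 member called higher and 1 called lower, against 1.34% and 2.65% of all genes (154 and 305 genes, or 192 and 236 with the median of ratios scaling). In the test over all libraries, 3 members and 2342 genes had an unadjusted p under 0.05. Mvd (mm9 chr8:124957496-124967322), the decarboxylase that ends the mevalonate arm, was at 8.31, 7.76 and 14.0 FPKM in sufficient and 2.63, 0 and 0 in deficient BMPC. The groups do not overlap, and the log2 difference was -2.80 ± 0.55 (limma adjusted p = 0.0077). Msmo1 (mm9 chr8:67196936-67212589), a sterol methyl oxidase, was at 17.9, 0 and 1.79 FPKM in sufficient and 18.5, 17.5 and 31.3 in deficient BMPC. These groups do overlap, and the log2 difference was 2.60 ± 0.71 (limma adjusted p = 0.048). Leaving out 1 library ended the Msmo1 call in 16 of 18 fits. Fitted to the 6 BMPC libraries alone, 0 members and 0% of all genes passed in either direction, with 1 member and 688 genes at an unadjusted p under 0.05, and 0 members passed with a quality weight per library. The 8 genes of the mevalonate arm had a median log2 difference of -1.21 in BMPC, from -2.80 for Mvd to 0.28 for Ggps1, and their summed FPKM did not overlap between genotypes (192 to 309 in sufficient and 84.4 to 146 in deficient). Without Fdps, which overlapped on its own, the other 7 summed to 93.7 to 108 and 35.8 to 67.8. The summed FPKM of the sterol arm lay the other way, at 166 to 183 in sufficient and 185 to 207 in deficient BMPC. The median log2 difference of its 11 genes was only 0.13, from -1.36 to 2.60 for Msmo1. Whether the gap in this sum rests on single genes such as Msmo1 was not tested. The erythroid markers summed to 3428 to 5580 FPKM in sufficient and 1454 to 3657 in deficient BMPC, and the cell cycle genes to 531 to 808 and 387 to 498. The BMPC markers summed to 2849 to 4078 and 4153 to 5049, and the 10 housekeeping genes to 14051 to 14718 and 12234 to 12970. The part of any of these, or of read depth, in the differences was not tested.

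No change between cell types differed between genotypes by the interaction test. For GCB against nB, 0 of 33 members and 0% of all genes passed in either direction, with 1 member and 204 genes at an unadjusted p under 0.05. For BMPC against nB, 0 members passed, against 0.165% of all genes higher and 0.391% lower, and 5 members and 1373 genes had an unadjusted p under 0.05. For BMPC against GCB, 0 members passed, against 0.148% and 0.278%, with 2 members and 1086 genes at an unadjusted p under 0.05. Voom called 0 members in all 3. The nearest were Mvd (-2.50 ± 0.77, limma adjusted p = 0.21, and -3.04 ± 0.77, limma adjusted p = 0.12) and Msmo1 (2.36 ± 1.00, limma adjusted p = 0.36, and 2.16 ± 1.00, limma adjusted p = 0.52). Mvk (-2.74 ± 1.15 against nB, limma adjusted p = 0.36) and Hmgcs1 (-1.81 ± 0.99 against GCB, limma adjusted p = 0.59) came next, and for GCB against nB Tm7sf2 (-1.92 ± 0.59), Insig1 (1.08 ± 0.61) and Mvk (-1.13 ± 1.15), all at a limma adjusted p of 1.0. Without the first deficient BMPC library Mvd passed in both BMPC interactions, and without the first sufficient one Msmo1 did.

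**Figure D5:**
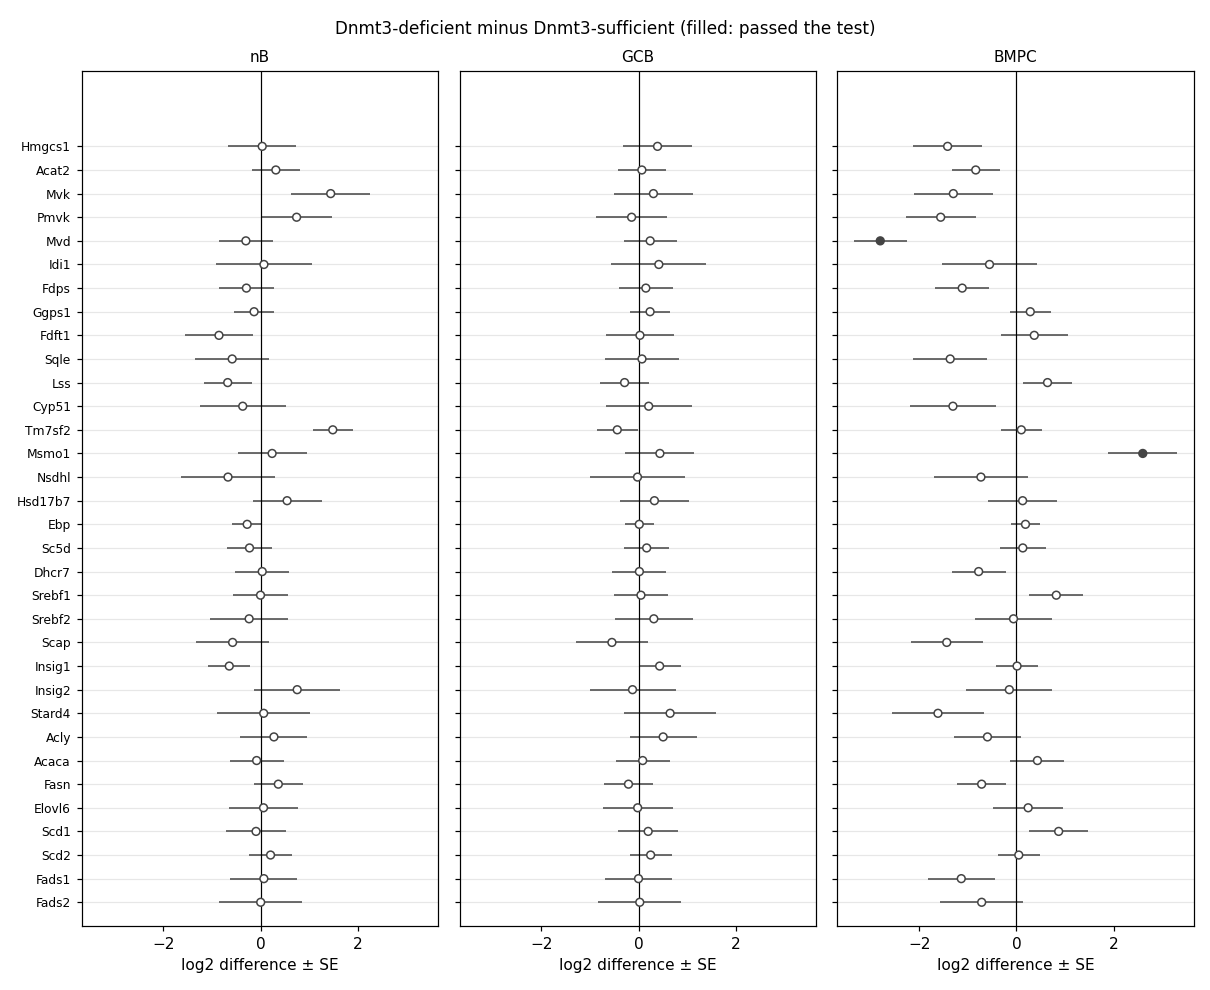
Log2 difference of Dnmt3-deficient minus Dnmt3-sufficient cells with its standard error for the 33 genes tested, in nB, GCB and BMPC on a common axis. Filled points passed the test over all libraries: Mvd and Msmo1 in BMPC. In GCB all 33 points lie between -0.55 and 0.65, and 0 are filled in nB and GCB.

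Genes around the synthesis chain were read from 5 lists. Of 10 tested genes for cholesterol uptake, storage and export, 4 were lower and 0 higher in GCB than in nB in each genotype, where 6.93% and 6.61% of all genes were lower. The 3 that fell in both genotypes were Abcg1 and Abca1, which export cholesterol, and Mylip, which marks lipoprotein receptors for degradation. Abcg1 fell from 136 ± 49.1 to 5.67 ± 1.22 FPKM in sufficient mice and from 124 ± 26.3 to 7.25 ± 2.42 in deficient mice (log2 differences -4.32 ± 0.36 and -3.94 ± 0.36). Abca1 fell by 2.79 ± 0.61 and 2.33 ± 0.61 on the log2 scale, and Mylip by 2.63 ± 0.67 and 2.15 ± 0.67. All 3 were also lower in BMPC than in nB in both genotypes, with Soat1, which esterifies cholesterol for storage. Npc2, which moves cholesterol out of lysosomes, was higher in BMPC: 123 ± 26.4 FPKM against 41.3 ± 12.5 in sufficient nB and 128 ± 12.9 against 50.6 ± 11.5 in deficient nB (log2 differences 1.58 ± 0.39 and 1.34 ± 0.39).

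Of 10 genes of SREBP processing and turnover, 1 was higher and 1 lower in GCB than in nB in each genotype. Of all genes, 7.22% and 6.31% were higher and 6.93% and 6.61% lower there. Tmem97, a sterol-responsive membrane protein, rose in both (2.48 ± 0.45 and 2.05 ± 0.45 on the log2 scale) and was also higher in BMPC than in nB (2.97 ± 0.45 and 1.74 ± 0.45). Mbtps1, the protease that makes the first cut in SREBP, was lower in BMPC than in nB (-1.77 ± 0.65 and -1.96 ± 0.65). Of 10 genes that use prenyl groups, 0 passed between GCB and nB in either genotype, and Icmt, which methylates prenylated proteins, was lower in BMPC than in both B cell types in both genotypes. Of 11 tested genes of fatty acid elongation and activation, 0 passed between GCB and nB. Tecr, the last enzyme of the elongation cycle, was higher in BMPC than in nB (1.01 ± 0.20 and 1.18 ± 0.20), and Elovl5 was lower (-3.24 ± 0.94 and -2.72 ± 0.94). Of 12 genes of fatty acid oxidation, 0 passed between GCB and nB, while Cpt1a and Hadha were lower in BMPC than in GCB in both genotypes. In sufficient and deficient mice, 2 and 4 of these 12 were lower than in GCB, against 20.9% and 26.1% of all genes. Of all genes, 27.6% and 30.6% were lower in BMPC than in nB. Lower among the lists were 5 and 4 of 10 uptake genes and 2 and 2 of 10 SREBP processing genes. So were 1 and 3 of 10 prenyl genes, 1 and 2 of 11 elongation genes and 1 and 3 of 12 oxidation genes. Higher than nB were 9.74% and 6.85% of all genes and 0 or 1 gene of each list.

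The exons of another 3 members share over 5% of their bases with other genes in the mm9 annotation used here (GENCODE M1): 26.9% for Fdft1, with Ctsb on the other strand, 7.49% for Acss2 and 7.11% for Ggps1. Use of strand in the counting is not stated, so reads of these genes and their partners cannot be told apart there.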

How the data were processed

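The authors sorted 5000 cells per library, amplified the RNA by SMART-seq with Nextera tagmentation, and sequenced 50 bp paired ends. Reads with a single hit were aligned to mm9 with TopHat and counted over UCSC KnownGenes exons with summarizeOverlaps. Whether counting used strand is not given in the sources used here. The labels' processing notes name Picard, R 3.2.2 and edgeR 3.12.1. The deposited values are FPKM, computed by the authors over the listed genes: value times exon length gave whole multiples of 1 read in 100% of values (tolerance 0.01), so reads and depth were recovered. Columns holding the authors' own fold changes and p-values were not used. 0 columns belonged to no sample.

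The 11522 genes that exceeded 1 FPKM in 2 or more libraries entered a limma 3.58.1 fit (R 4.3.3) of log2(FPKM + 1). The 6 groups each had a mean, all 18 libraries shared the variance, which followed a trend, and tests were two-sided with Benjamini-Hochberg adjustment over all genes tested. Fold changes on this scale understate those of low genes. Ratios of means are linear FPKM. Summaries were made in Python 3.11.15 with pandas 2.3.3. The fit was run on simulated counts for the genotype comparison in GCB alone, which does not bear on the BMPC comparisons. No pair of libraries agreed within sampling noise (lowest chi-square per degree of freedom 22.3). Floors are 3 reads per library, and intervals cover counting error only. p-values measure the spread between these libraries.

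Full values are given for the 5 members of largest change among those passing in both genotypes without overlap in each cell type comparison, for members passing a genotype test or interaction or else its 3 lowest p-values, and for Srebf1, Srebf2, Scap, Insig1 and Insig2. Other pathway genes are named where they passed in both genotypes, at most 4 per list. Further genes given with values, such as Npc2, were chosen after they were seen. The 34 members and all lists were chosen with earlier results of these data known. Alternatives were another pseudocount, filter, scaling, library weights, sex as a covariate, a fit to the groups compared, voom on recovered reads, a replicate block and each library left out. Some items of the labels and lists are not reported here.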

Additional observations from a re-analysis of the deposited data

How the results depend on the processing

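Reversal was checked only for selected differences of genes given with full values, and none of these reversed under any alternative. Of these checks, 1169 were the same, 5 stronger and 98 weaker. Counts were labeled only as the same (273) or moved (52), so a reversal of a count was not tested. In the fit to the groups compared, the share of members lower than GCB in sufficient mice was no longer above that of all genes (15.2% against 15.5%). The same held for the share lower than nB in deficient mice (18.2% against 19.6%). Counts of members passed for GCB against nB went from 6 (sufficient) and 7 (deficient) to 14 and 15 in the fit to the groups compared, 3 and 3 with a pseudocount of 0.1, 18 and 15 with a quality weight per library, and 14 and 13 with voom. The fit to the groups compared gave 6 in place of 16 for BMPC against GCB in sufficient mice and 7 in place of 14 for BMPC against nB in deficient mice. For the genotype difference in BMPC the count of 2 became 0 in the fit to the groups compared and with quality weights, and 1 with no filter, with a pseudocount of 0.1, with sex as a covariate and with voom. Mvd lost its call in the first 2 of these (limma adjusted p = 0.75 and 0.47) and Msmo1 in all 6 (highest 0.78). The cause was not tested.

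Leaving out 1 library gave 1 to 8 members for GCB against nB in sufficient and 1 to 12 in deficient mice, 7 to 10 and 8 to 18 for BMPC against nB, and 10 to 17 and 16 to 22 for BMPC against GCB. It gave 0 to 1, 0 to 0 and 1 to 4 for genotype in nB, GCB and BMPC, and 0 to 0, 0 to 1 and 0 to 1 for the interactions. Counts moved by over 1.5 times for BMPC against GCB in sufficient mice without the first sufficient GCB library (10), for BMPC against nB in deficient mice without deficient nB library 1 or 3 (8 each), and for genotype in BMPC without the first deficient or second sufficient BMPC library (4 each) or without the deficient BMPC library 3 or any single nB or GCB library (1 each).

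Same-numbered GCB libraries of the 2 genotypes did not deviate together (correlations -8.06e-05, -0.0171 and 0.0257). These correlations cannot show whether the shared numbers mark a pairing in the design. A replicate block gave 0 members, as without it. BMPC depth, a fraction of the others, limits what a 0 there shows.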
